A study of Homo sapiens with 36 samples.

Results

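SMAD6, SMAD7, SMAD9, SMAD1, SMAD5, ID1, ID2, ID3, BMP4 and BAMBI were followed as components and transcriptional outputs of the bone morphogenetic protein (BMP) pathway. They were found in the count tables by Ensembl ID and make up 10 of the 63677 genes listed. All 10 passed the filter on low counts and were among the 19180 genes tested. The cells were A549, a human non-small cell lung cancer line kept in RPMI medium with fetal bovine serum. IL-1β, an inflammatory cytokine, was given at 1 ng/ml, with harvests on days 6, 15 and 21. Cells treated for 21 days were then kept without the cytokine, with harvests 6, 15 and 30 days after its withdrawal. Untreated A549 cells were collected at each of the 6 time points, so that 12 groups of 3 libraries, labelled as biological replicates, gave 36 libraries. A549 is the only line in these libraries, and its controls were untreated cells rather than cells given a vehicle or another cytokine.

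BMP ligands bind paired type I and type II serine/threonine kinase receptors. The active type I receptor phosphorylates SMAD1, SMAD5 and SMAD9, which join SMAD4, enter the nucleus and switch on target genes, of which the ID genes are the best known. SMAD6 and SMAD7, the inhibitory SMADs, and BAMBI, a pseudoreceptor without a kinase domain, are themselves induced by this signal and hold it back. In the lung, BMP4 is known for its part in branching of the developing airway and in epithelial cell differentiation.

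The 250 bases upstream of the RefSeq start are shown for the 3 members that were lowered most widely, SMAD6, BMP4 and BAMBI, and for ID1, a classic BMP target that did not pass the test at any time point. The windows come from the RefSeq promoter table (GRCh38.p14), in which all 10 members had at least 1 start and 18 windows in all, and each printed window was placed on GRCh37 by exact match. Each is written 5′ to 3′ on the strand of the gene, and capitals mark matches to the motifs searched. The positions on GRCh37 are chr15:66994324-66994573 (plus strand) for SMAD6, chr14:54421769-54422018 (minus strand) for BMP4, chr10:28966200-28966449 (plus strand) for BAMBI and chr20:30192842-30193091 (plus strand) for ID1.
SMAD6: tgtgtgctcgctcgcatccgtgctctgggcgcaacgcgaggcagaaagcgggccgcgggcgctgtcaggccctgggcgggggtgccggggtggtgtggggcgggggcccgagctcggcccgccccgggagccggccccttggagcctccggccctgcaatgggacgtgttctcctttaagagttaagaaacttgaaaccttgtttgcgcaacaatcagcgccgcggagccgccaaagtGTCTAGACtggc
BMP4: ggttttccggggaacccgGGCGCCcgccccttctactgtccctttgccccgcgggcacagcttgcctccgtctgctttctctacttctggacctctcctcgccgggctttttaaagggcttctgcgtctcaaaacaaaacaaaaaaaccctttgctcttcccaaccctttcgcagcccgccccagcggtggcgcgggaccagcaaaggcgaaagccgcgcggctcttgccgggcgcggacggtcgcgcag
BAMBI: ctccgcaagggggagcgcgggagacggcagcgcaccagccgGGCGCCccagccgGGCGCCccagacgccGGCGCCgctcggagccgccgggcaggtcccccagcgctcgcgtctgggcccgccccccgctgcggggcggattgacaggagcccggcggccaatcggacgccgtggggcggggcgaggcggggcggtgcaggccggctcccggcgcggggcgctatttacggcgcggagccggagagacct
ID1: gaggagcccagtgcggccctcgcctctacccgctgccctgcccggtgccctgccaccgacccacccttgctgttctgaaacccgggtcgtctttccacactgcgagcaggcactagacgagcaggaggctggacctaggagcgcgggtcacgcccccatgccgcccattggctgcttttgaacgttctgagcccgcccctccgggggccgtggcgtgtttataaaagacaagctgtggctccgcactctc
The palindromic SMAD-binding element GTCTAGAC stood in the SMAD6 window, its first base 12 bases upstream of the start. It was in the windows of 1 of 10 members, and in 0.182% of the 35116 upstream windows of the same length. GGCGCC, a GC-rich SMAD motif, occurred 3 times in the BAMBI window, 1 time in the BMP4 window shown and 2 times in each of 2 SMAD1 windows, so that 4 of the 18 member windows held it, against 16.4% of all windows. The AP-1 motif TGANTCA was found in a SMAD1 window and the kappaB motif in windows of ID2 and SMAD1, whereas 6.57% and 9.96% of all windows held them. Both strands were searched, and none of these motifs was in the ID1 window shown. A match describes letters only. The table held 3 windows for BMP4, and the window shown lies inside the gene as GENCODE bounds it, so it belongs to 1 of several starts. The BAMBI and ID1 windows end a few bases inside the GENCODE gene.

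Gene counts summed to between 9116032 and 23570026 in each library. Of the epithelial markers, KRT8, KRT18 and CDH1 exceeded a mean of 1 CPM (read counts scaled by the effective library size), whereas EPCAM, KRT19 and CLDN7 did not, and the 6 markers together summed to 2900 to 7620 CPM in controls and 899 to 5140 CPM in IL-1β libraries. The leukocyte genes PTPRC and CD3E never exceeded 3 counts in a library, and CD68 reached at most 5 counts (0.217 CPM) in controls and 7 counts (0.696 CPM) with IL-1β, the highest count and CPM falling in different libraries. On the same strand another gene overlaps 81.6% of the CD68 exon length, so CD68 reads may have been dropped in counting. The part of these cell markers in the results was not tested. The fibroblast markers summed to between 1.14 and 4.41 CPM in controls and to between 1.36 and 3.42 CPM with IL-1β. The endothelial markers VWF and CDH5 together summed to at most 0.173 CPM in controls and 0.348 CPM with IL-1β. In 11 libraries, 6 control and 5 IL-1β, mitochondrial transcripts made up 11.8% to 24.6% of all gene counts, and in the remaining 25 libraries 5.61% to 7.75%. Of these 11, 8 carried the replicate number 2 and 8 were collected after withdrawal, and values that move with this share are given beside each result.

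SMAD6, BMP4 and BAMBI fell during exposure to IL-1β. SMAD6 was 2.99-fold lower at day 15 and 3.3-fold lower at day 21. After withdrawal its difference from controls was smaller and not called, although its groups did not overlap. The change in its response from day 21 to days 6 and 30 after withdrawal did not pass the adjusted p, so recovery was not shown. BMP4 was 3.19-fold lower at day 15, 3.18-fold lower at day 21 and remained called at each time point after withdrawal. BAMBI passed the adjusted p at days 6 and 15 of exposure, at less than a 2-fold change, and was called at day 30 after withdrawal. SMAD9, at under 2 CPM in all libraries, was called higher than its controls at day 15 after withdrawal, where its control mean was lowest. SMAD1, SMAD5, SMAD7, ID1, ID2 and ID3 were not called at any time point.

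With edgeR's quasi-likelihood test and Benjamini-Hochberg adjustment over all genes, a gene was called where it exceeded a fold change of 2 and its adjusted p was below 0.05. By that rule 0 of 10 members were called at day 6 of IL-1β, where 2.77% of all genes tested were called. At an unadjusted p under 0.05 there were 3 (11.8% of all genes), and the DESeq2 Wald test also called 0. At day 15, 2 members were called (4.24% of all genes), and at day 21 there were 2 (4.26%). After withdrawal, 1 was called at day 6 (1.8% of all genes), 2 at day 15 (0.954%) and 2 at day 30 (0.897%). All calls were of lower expression but that of SMAD9. The adjusted p alone was passed by 2, 3 and 2 members at days 6, 15 and 21 of IL-1β, where 4.27%, 6.43% and 6.4% of all genes passed, and by 1, 2 and 2 members after withdrawal, where 2.62%, 1.36% and 1.31% did. The median log2 fold change of the 10 members lay between -0.10 and 0.17 over the 6 time points, and that of all genes tested between -0.02 and 0.02.

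The libraries of IL-1β and control did not overlap in CPM for 3, 3 and 4 members at days 6, 15 and 21 of IL-1β. Among all genes tested this held for 21.8%, 25.4% and 29%. After withdrawal there were 2, 4 and 5 such members at days 6, 15 and 30, against 10.8%, 10.9% and 11.9% of all genes. SMAD6 and BMP4 were in this count at each of the 6 time points and always with lower IL-1β values. The control libraries of a time point serve all genes, so these members are not independent of each other.

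**Figure D1:**
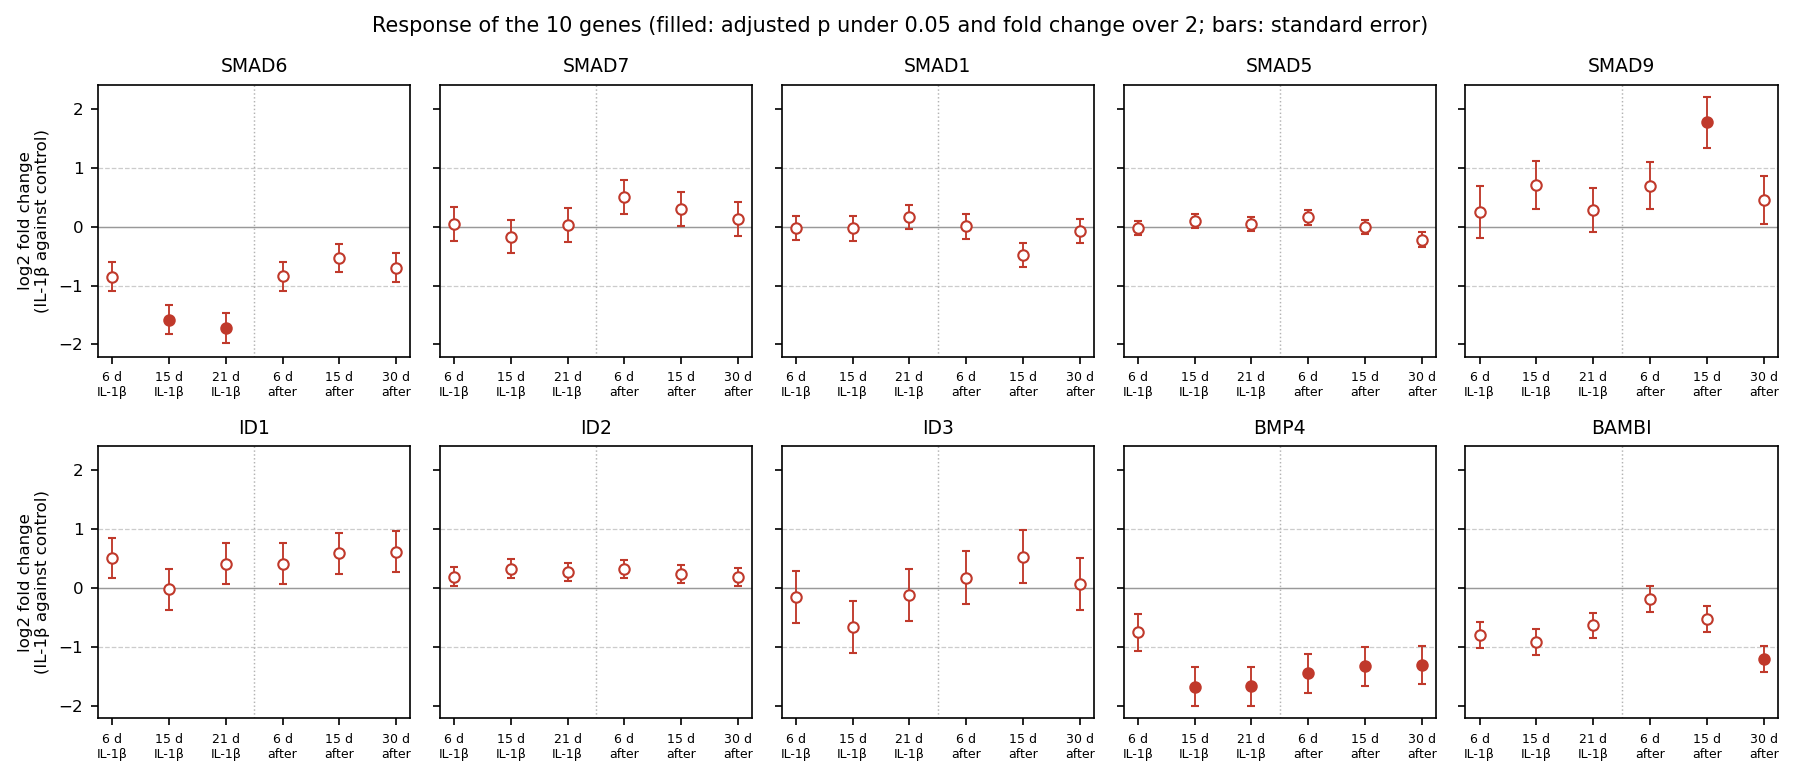
Log2 fold change of IL-1β against the control of the same time point (vertical axis) for the 10 genes at the 6 time points (horizontal axis), with standard errors as bars, filled points for genes past both thresholds, and the dotted line at withdrawal. SMAD6 is filled at days 15 and 21 of IL-1β, BMP4 at all time points but day 6 of IL-1β, SMAD9 at day 15 after withdrawal, and BAMBI 30 days after it.

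Expression per length of exon ordered the members in the day 6 controls as follows. ID1 stood at 105 ± 22 CPM per kb (SD, n = 3) and ID3 at 97.6 ± 13.7, which did not differ beyond their spread. ID2 came next at 38.4 ± 3.75 CPM per kb. SMAD6 at 9.9 ± 0.85 and SMAD5 at 9.41 ± 0.512 CPM per kb overlapped, followed by BMP4 at 6.52 ± 0.379. SMAD7 at 4.79 ± 0.947 and BAMBI at 3.47 ± 0.986 CPM per kb overlapped within 1 SD. SMAD1 was at 1.21 ± 0.0671 CPM per kb and SMAD9 was lowest at 0.0769 ± 0.0292. SMAD5 was the most abundant receptor-regulated SMAD of the BMP branch at the level of RNA, and SMAD6 the more abundant inhibitory SMAD.

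BMP4, the ligand among the members (ENSG00000125378, chr14:54416454-54425479 on GRCh37, minus strand), was lowered by IL-1β and stayed lower after withdrawal. The day 6 controls held 18.8, 21 and 20.7 CPM and the IL-1β libraries 12.8, 12.4 and 10.8 CPM. On day 15 the controls were at 13.6, 14.8 and 27.2 CPM and the IL-1β libraries at 5.66, 5.52 and 6.31 CPM. On day 21 these values were 11.7, 15.3 and 17.2 CPM against 3.86, 3.07 and 6.85 CPM. The control libraries lay above all IL-1β libraries at each time of exposure, with the highest value in the control of replicate 3 at day 15. By day 6 after withdrawal the controls were at 13.5, 9.24 and 16.7 CPM and the previously treated cells at 4.92, 3.59 and 5.91 CPM. The values at day 15 after withdrawal were 13.6, 13.3 and 13.7 CPM in controls and 4.17, 3.85 and 8.01 CPM in previously treated cells. At the last time point, day 30, they were 14.2, 9.65 and 23 CPM against 5.77, 5.01 and 8.28 CPM. Here too the groups did not overlap, and replicate 3 was the highest library of both groups.

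On day 6 of IL-1β, BMP4 differed by a log2 fold change of -0.75 ± 0.317 (SE), with an adjusted p of 0.284. The value was -1.67 ± 0.328 on day 15 (adjusted p = 0.00103) and again -1.67 ± 0.328 on day 21 (adjusted p = 0.00104). Cells without IL-1β for 6 days still had -1.44 ± 0.331 (adjusted p = 0.0105), those at day 15 -1.33 ± 0.327 (adjusted p = 0.032) and those at day 30 -1.30 ± 0.324 (adjusted p = 0.0371). These are 2.72-fold, 2.51-fold and 2.47-fold lower levels. In bulk RNA, a lower level in each cell and fewer cells that express the gene cannot be told apart. The size of the difference stayed between -1.95 and -1.12 on the log2 scale over all alternatives at these 5 time points, but its call depended on the libraries. Without the 12 libraries numbered 1, the log2 fold changes on exposure were -1.81 (day 15, adjusted p = 0.0912) and -1.69 (day 21, adjusted p = 0.128). Those after withdrawal were -1.44, -1.19 and -1.31, with adjusted p of 0.516, 0.804 and 0.745. Without those numbered 2, the calls after withdrawal were also lost (log2 -1.51, -1.18 and -1.40, adjusted p = 0.0685, 0.308 and 0.223). Over all 12 alternatives the adjusted p ran from 9.95e-06 to 0.0912 at day 15 of IL-1β, and for day 30 after withdrawal it ran from 0.000331 to 0.745. Pooled over all time points, libraries with a high mitochondrial share had a median of 13.4 CPM of BMP4 in controls and 3.85 CPM with IL-1β, the others 16 and 5.91 CPM. In the 9 groups that hold both kinds, BMP4 was lower in 6 and higher in 2 in the libraries of high share. Without them BMP4 had log2 fold changes of -1.73 (day 15) and -1.43 (day 21) on exposure. After withdrawal these were -1.61, -1.12 and -1.38, where the value of day 15, which then rests on 1 control, had an adjusted p of 0.458.

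The receptor-regulated SMADs, which carry the BMP signal into the nucleus, were not called, with SMAD9 at day 15 after withdrawal as the exception. SMAD5 lay between 69.4 and 105 CPM over the 36 libraries, and its log2 fold changes ran from -0.22 at day 30 to 0.15 at day 6, both after withdrawal, with adjusted p of 0.695 or more at all time points. SMAD1 lay between 5.87 and 12 CPM, with log2 fold changes from -0.48 at day 15 after withdrawal (adjusted p = 0.464) to 0.16 at day 21 of IL-1β. Of the SMAD1 values in the day 15 controls after withdrawal, 12 and 10.6 CPM came from libraries with a high mitochondrial share, and without such libraries the log2 fold change there was 0.02. For SMAD1 and SMAD5, 5.3% and 6.75% of the exon length is overlapped by an antisense gene. If strand was not used, reads of these stretches may have been dropped as ambiguous or wrongly assigned.

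SMAD9, the least abundant of the 3 (ENSG00000120693, chr13:37418968-37495024, minus strand), was counted 3 to 28 times per library. At day 15 after withdrawal the controls held 6, 3 and 5 counts, or 0.39, 0.306 and 0.508 CPM. The previously treated libraries held 28, 18 and 23 counts, or 1.8, 1.31 and 1.07 CPM. The groups did not overlap, and the difference was 3.41-fold (log2 1.77 ± 0.431, adjusted p = 0.0297). At the other 5 time points the log2 fold change was between 0.25 and 0.70, above 0 each time, with adjusted p of 0.405 or more. The call at day 15 rests on few reads and on the lowest control mean of the 6 time points. Previously treated cells held 1.29 ± 0.19 CPM (SD, n = 3) at day 6 after withdrawal and 1.39 ± 0.369 CPM at day 15. Their controls held 0.833 ± 0.648 and 0.401 ± 0.101 CPM. At day 15 the controls of replicates 2 and 3 had a high mitochondrial share. Without the libraries numbered 1 it was lost (log2 1.51, adjusted p = 0.837), as it was without those numbered 2 (1.64, 0.239), and over its 11 alternatives the adjusted p ran from 0.0191 to 0.837. In the control of replicate 2 at day 6 after withdrawal, which has a high mitochondrial share, SMAD9 was at 1.55 CPM, above the 0.645 and 0.301 CPM of its group. Without the libraries of high mitochondrial share, the log2 fold change at that time point was 1.97 (adjusted p = 0.0436, with 1 control library left) and that at day 15 was 1.84 (adjusted p = 0.255, also with 1 control).

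SMAD6, the inhibitory SMAD that acts chiefly on the BMP branch (ENSG00000137834, chr15:66994574-67075187, plus strand), was lowest in the cells exposed to IL-1β for 15 and 21 days. At day 6 the controls held 90.6, 86.9 and 76.6 CPM and the IL-1β libraries 55.3, 51.8 and 34.1 CPM. At day 15 the controls were at 63.5, 68.8 and 96.9 CPM and the IL-1β libraries at 25.7, 27.2 and 23.8 CPM. At day 21 there were 60.1, 63.6 and 84 CPM against 16.7, 16.5 and 29.7 CPM. Each control library lay above each IL-1β library at these 3 time points, with the widest gap at day 15. After 6 days of withdrawal the controls held 68, 52.4 and 98.3 CPM and the previously treated cells 38.9, 33.5 and 49.5 CPM. After 15 days these were 76.9, 65.4 and 67.6 CPM against 52.9, 34.9 and 56.6 CPM, and after 30 days 79.6, 67.7 and 96.5 CPM against 47.9, 48.5 and 54.3 CPM. The groups still did not overlap, although at day 6 after withdrawal the control of replicate 2 and the treated library of replicate 3 lay close together.

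SMAD6 was 1.8-fold lower at day 6 of IL-1β (log2 -0.85 ± 0.241), which passed the adjusted p (0.0392) but not the fold threshold. This pass was lost without the libraries numbered 1 (log2 -0.91, adjusted p = 0.488) or 2 (-0.89, 0.149). It was 2.99-fold lower at day 15 (log2 -1.58 ± 0.246, adjusted p = 5.68e-05) and 3.3-fold lower at day 21 (log2 -1.72 ± 0.247, adjusted p = 1.58e-05). Both of these calls held in all 12 alternatives, with log2 fold changes between -1.68 and -1.31 at day 15 and between -1.90 and -1.55 at day 21 and adjusted p of at most 0.026 and 0.0264. Once IL-1β had been withdrawn, SMAD6 stood at a log2 fold change of -0.84 ± 0.242 by day 6 (adjusted p = 0.0585, and 0.0251 with replicate number blocked), of -0.54 ± 0.24 by day 15 (adjusted p = 0.492) and of -0.69 ± 0.24 by day 30 (adjusted p = 0.234). These differences were 49%, 31.3% and 40.4% of the log2 fold change at day 21. Pooled over all time points, libraries with a high mitochondrial share had a median of 67.7 CPM of SMAD6 in controls and 33.5 CPM with IL-1β, the others 78.3 and 47.9 CPM. In the 9 groups that hold both kinds, SMAD6 was lower in 7 and higher in 0 in the libraries of high share. Without those libraries, SMAD6 was called at day 6 after withdrawal (log2 -1.14, adjusted p = 0.0323, with 1 control library left), and its log2 fold change on exposure was -1.53 (day 15) and -1.55 (day 21). Over the 12 alternatives the adjusted p at day 6 after withdrawal ran from 0.00252 to 0.87.

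SMAD7, which restrains both the BMP and the TGF-β branch, was not called at any time point. Its levels lay between 8.03 and 23.3 CPM, and its log2 fold changes were lowest at day 15 of IL-1β, with -0.17, and highest at day 6 after withdrawal, with 0.50 (adjusted p of 0.692 or more). The IL-1β and control libraries overlapped at all 6 time points. The lowest SMAD7 values of both groups, 8.03 CPM in a control and 9 CPM in an IL-1β library, came from libraries with a high mitochondrial share. Pooled over all time points, such libraries had medians of 12.2 CPM in controls and 13.1 CPM with IL-1β, against 16.8 and 18.5 CPM in the others. In the 9 groups that hold both kinds, SMAD7 was lower in 7 and higher in 1 in the libraries of high share. Small as they were, its fold changes on exposure, and that of day 30 after withdrawal, changed sign in at least 1 alternative.

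**Figure D2:**
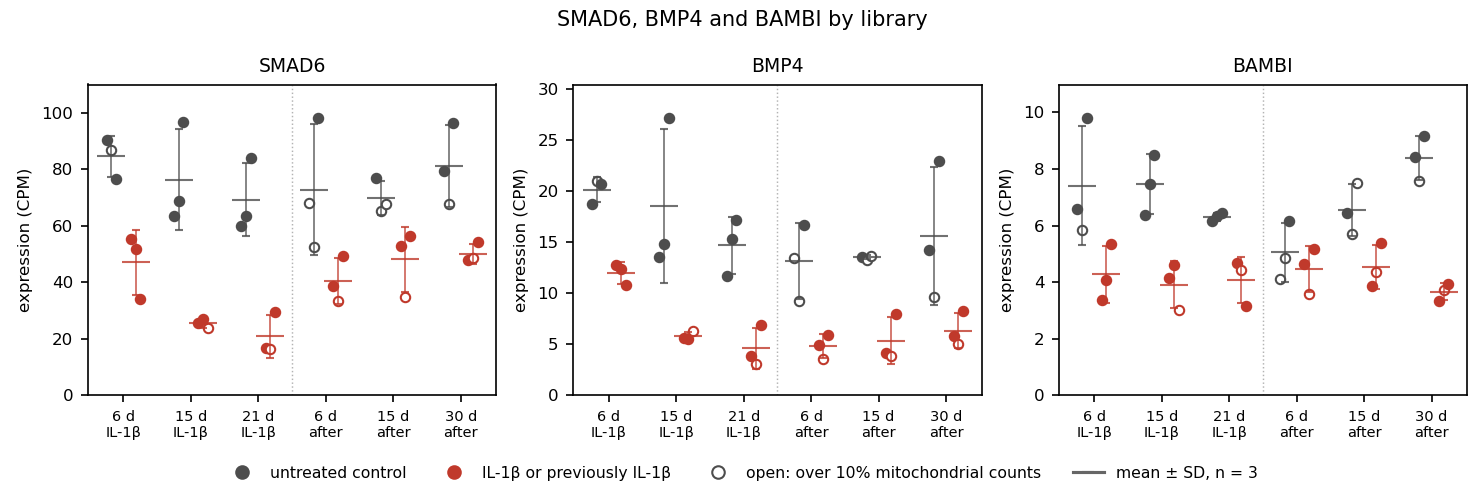
Expression in CPM (vertical axis, from 0) of SMAD6, BMP4 and BAMBI in each of the 36 libraries, by time point (horizontal axis), with control in grey, IL-1β or previously IL-1β in red, open points for libraries with over 10% mitochondrial counts, and bars for the mean ± SD of 3 libraries. IL-1β libraries of SMAD6 and BMP4 lie below their controls at all 6 time points, while those of BAMBI overlap with theirs at day 6 after withdrawal.

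BAMBI, the pseudoreceptor (ENSG00000095739, chr10:28966439-28971861, plus strand), was lower in IL-1β libraries than in controls throughout exposure, at low levels. Controls held 6.6, 5.83 and 9.81 CPM at day 6, 6.39, 7.48 and 8.51 CPM at day 15 and 6.15, 6.33 and 6.45 CPM at day 21. The IL-1β libraries held 3.38, 4.09 and 5.36 CPM, then 4.16, 4.59 and 3 CPM, and then 4.67, 4.42 and 3.16 CPM. The groups did not overlap at these time points. After withdrawal, the controls were at 4.13, 4.84 and 6.18 CPM at day 6, at 6.43, 5.71 and 7.52 CPM at day 15 and at 8.44, 7.59 and 9.15 CPM at day 30. Previously treated cells were at 4.64, 3.59 and 5.16 CPM, at 3.85, 4.36 and 5.4 CPM and at 3.33, 3.71 and 3.93 CPM. The groups overlapped at day 6 after withdrawal and were farthest apart at day 30, where the controls were also at their highest mean, 8.39 ± 0.779 CPM (SD, n = 3).

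On IL-1β, BAMBI had a log2 fold change of -0.79 ± 0.219 by day 6 (adjusted p = 0.0332) and of -0.92 ± 0.22 by day 15 (adjusted p = 0.00776), which passed the adjusted p but not the fold threshold. Without the libraries numbered 1, 2 or 3 the adjusted p was 0.619, 0.177 and 0.0665 at day 6 and 0.139, 0.0532 and 0.0786 at day 15. At day 21 it was -0.63 ± 0.218 (adjusted p = 0.094). Of the values after withdrawal, day 6 gave -0.18 ± 0.223 (adjusted p = 1), day 15 -0.52 ± 0.221 (adjusted p = 0.429) and day 30 -1.20 ± 0.221 (adjusted p = 0.00344), a 2.3-fold lower level. The call at day 30 was lost without the libraries numbered 1 (log2 -1.15, adjusted p = 0.323) and without those numbered 2 (log2 -1.28, adjusted p = 0.135), and the adjusted p over its 12 alternatives ran from 1.02e-05 to 0.323. Without the libraries of high mitochondrial share it was -1.26 (adjusted p = 0.00829). Pooled over all time points, BAMBI medians were 5.77 CPM in controls and 3.71 CPM with IL-1β among those libraries, and 6.53 and 4.16 CPM among the others. In the 9 groups that hold both kinds, BAMBI was lower in 5 and higher in 0 in the libraries of high share.

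The ID genes encode helix-loop-helix proteins without a DNA-binding region, which bind E proteins and keep them from DNA. None of the 3 was called at any time point. ID1 lay between 57 and 207 CPM, and IL-1β and control differed on exposure by log2 fold changes of 0.51 ± 0.346 (day 6), -0.02 ± 0.346 (day 15) and 0.41 ± 0.346 (day 21). After withdrawal these were 0.41 ± 0.347, 0.59 ± 0.347 and 0.62 ± 0.347, with adjusted p of 0.699 or more throughout. ID2 lay between 71.5 and 144 CPM, with log2 fold changes of 0.19 to 0.33 and adjusted p of 0.277 or more. ID3 lay between 47.4 and 209 CPM, with log2 fold changes from -0.66 ± 0.446 at day 15 of IL-1β to 0.53 ± 0.446 at day 15 after withdrawal and adjusted p of 0.479 or more. ID2 was above 0 at all 6 time points, and at day 21 of IL-1β its IL-1β libraries (85.9, 89.9 and 101 CPM) did not overlap with the controls (71.5, 72.1 and 85.7 CPM). With high mitochondrial share as a yes or no covariate, ID2 passed the adjusted p at day 6 after withdrawal (log2 0.41, adjusted p = 0.0473). Over its 12 alternatives there the adjusted p ran from 0.0473 to 1. An antisense gene overlaps 6.55% of the ID2 exon length.

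Over all time points, ID1 and ID3 were lower and ID2 higher in libraries of high mitochondrial share. Of the 9 groups that hold both kinds of library, those of high share lay below the others in 8 for ID1 and 9 for ID3, and above them in 7 for ID2. ID1 had a median of 87.1 CPM (57 to 128) in the 6 controls with a high share and 128 CPM (92.5 to 158) in the other 12. In IL-1β libraries it was 91.1 CPM (71.2 to 154) in 5 and 175 CPM (118 to 207) in 13. ID3 showed the same order, with medians of 73 against 149 CPM in controls and 80.7 against 139 CPM with IL-1β. ID2 went the other way, with 102 against 83.1 CPM in controls and 138 against 101 CPM with IL-1β. Within the 12 groups, the replicate with the most ID1 also had the most ID3 in 12, whereas for ID1 and ID2 this was so in 4. Without the libraries of high mitochondrial share, ID1 had log2 fold changes of 0.52, 0.24 and 0.57 on exposure and 0.20, 0.51 and 0.40 after withdrawal, with an adjusted p of 0.071 at day 21 of IL-1β and of 0.148 or more at the others. The sign at day 15 of IL-1β turned, where the IL-1β library of replicate 3, at 71.2 CPM against 132 and 150 CPM in its group, was left out.

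**Figure D3:**
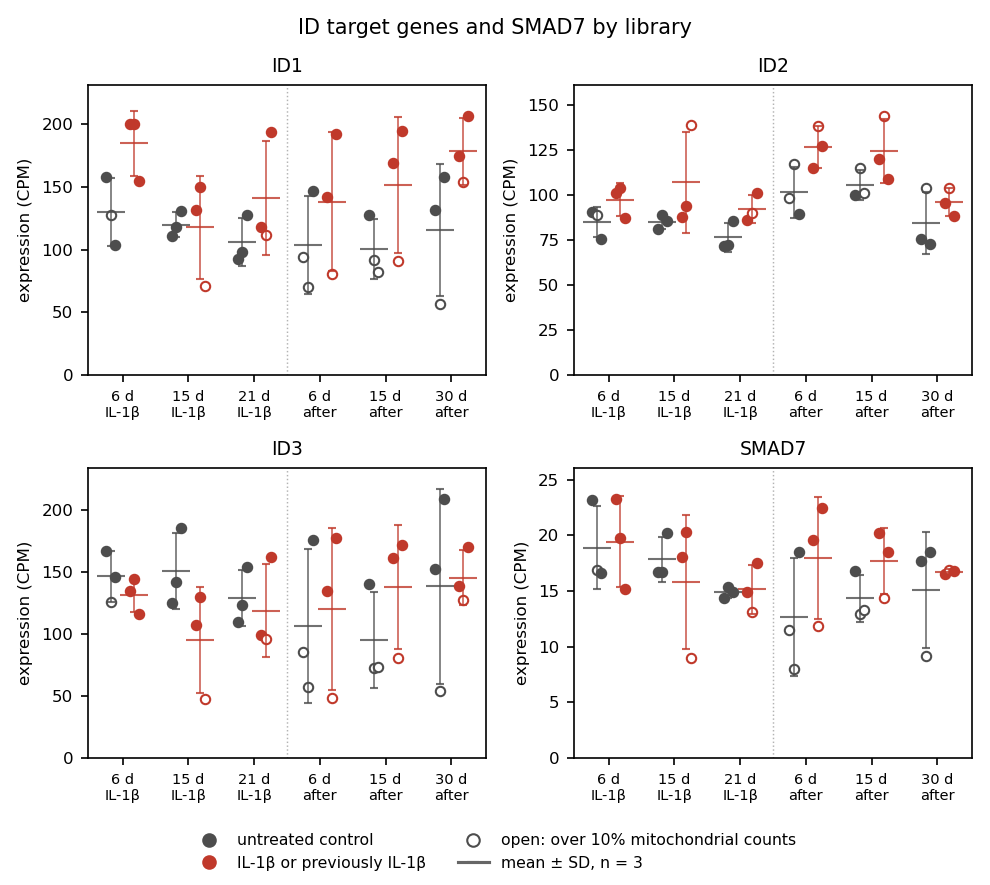
Expression in CPM (vertical axes, from 0) of ID1, ID2, ID3 and SMAD7 in each library by time point (horizontal axes), with control in grey, IL-1β or previously IL-1β in red, open points for libraries with over 10% mitochondrial counts, and bars for the mean ± SD of 3 libraries. The groups overlap at all time points but day 21 of IL-1β for ID2, and the lowest SMAD7 values, 8.03 and 9 CPM, are open points.

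Whether the response grew with exposure or was lost after withdrawal was tested as the difference between responses. From day 6 to day 21 of IL-1β, 0 members passed, against 0.0104% of all genes tested, with 1 at an unadjusted p under 0.05 (2.24% of all genes). From day 21 to day 6 after withdrawal, 0 members passed, against 0.141%, again with 1 unadjusted (2.81%). From day 21 to day 30 after withdrawal, 0 passed, against 0.73%, likewise with 1 unadjusted (6.05%), and the DESeq2 Wald test gave 0 members in all 3 contrasts. The member past the unadjusted p was SMAD6 each time. Its log2 fold change moved by -0.87 ± 0.34 from day 6 to day 21 (adjusted p = 1), by 0.88 ± 0.341 from day 21 to day 6 after withdrawal (adjusted p = 1) and by 1.03 ± 0.34 to day 30 (adjusted p = 0.292), all from the edgeR fit. The last of these passed without the libraries numbered 3 (1.27, adjusted p = 0.0286), and its adjusted p over 12 alternatives ran from 0.0286 to 1. For BMP4 the same 3 differences were -0.92 ± 0.451, 0.23 ± 0.458 and 0.37 ± 0.453, and for BAMBI 0.16 ± 0.309, 0.45 ± 0.312 and -0.57 ± 0.309. At day 30 after withdrawal BMP4 held 78% of its day 21 log2 fold change and SMAD6 40.4%. BAMBI, not called at day 21, had 28.7%, 82.8% and 189% of its day 21 value at days 6, 15 and 30 after withdrawal. These contrasts share the day 21 libraries.

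The genes whose pattern was most like that of SMAD6, by Pearson's r of log2 CPM over the 12 group means among 19179 other genes, were ANXA4 (r = 0.985), NEDD9 (0.984), AGR2 (0.983), TM4SF4 (0.981) and INHBB (0.979). Among those most like BMP4 were NKD1 (r = 0.995), PTGFRN (0.981), GRAMD1B (0.978) and MYCN (0.974). Among the members, r to SMAD6 was 0.848 for BMP4 and 0.79 for BAMBI and ranged from -0.478 for SMAD9 to 0.325 for ID3 for the rest. BMP4 ranked 658 and BAMBI 1037 of the 19179 genes by r to SMAD6, so many other genes were closer to it. The r of BMP4 to SMAD9 was -0.82. All points share the same libraries, so r is given as a description.

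Of 55 other genes of the pathway, 35 were tested. On exposure 1, 4 and 5 of them were called in order of time, beside 2.77%, 4.24% and 4.26% of all genes, and 1, 2 and 3 of these were higher. After withdrawal 1 was called at day 6 (1.8% of all genes) and 0 at both later times (0.954% and 0.897%). At these later times the edgeR test gave 8 and 7 at an unadjusted p under 0.05, beside 8.75% and 8.35% of all genes, and the DESeq2 Wald test called 1 and 2. Blocking on replicate number, 1 gene, BMP6, was called at day 30 after withdrawal. The 20 genes left untested, among them the antagonists NOG, GREM1 and FST and the ligands GDF5 and BMP5, reached at most 11 counts in a library. The median log2 fold change of the 35 lay between -0.18 and 0.11 over the 6 time points.

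BMPER, a secreted protein that binds BMPs and tunes their signal, rose during exposure, when SMAD6 and BMP4 fell. It rose from 1.47 ± 0.423 CPM in controls to 12.3 ± 1.8 CPM at day 6 of IL-1β (SD, n = 3 each; log2 3.04 ± 0.324, adjusted p = 2.28e-07). BMPER remained higher by log2 fold changes of 2.73 (day 15) and 2.85 (day 21), and of 1.71 by day 6 after withdrawal (adjusted p = 0.00132), and the later values were 0.87 and 0.23. Its response at day 30 after withdrawal was smaller than that at day 21 by a tested difference of -2.62 ± 0.453 (adjusted p = 0.00191). The call at day 6 after withdrawal was lost without the libraries numbered 1 (adjusted p = 0.127) or 2 (0.087).

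BMPR1B, a type I receptor for BMP4 and related ligands, was at 31.3 ± 5.28 CPM in the day 21 controls and 13.4 ± 0.608 CPM with IL-1β (log2 -1.23 ± 0.258, adjusted p = 0.00209). It was called at days 15 and 21, and at day 15 (log2 -1.01) the call was lost in 7 of 12 alternatives. Its log2 fold change was -0.84, -0.93 and -0.94 after withdrawal, with adjusted p of 0.0883, 0.0689 and 0.0691 and no overlap of the groups. Blocking on replicate number gave adjusted p of 0.042, 0.0294 and 0.033, still under the fold threshold. BMP8B, a ligand, was called at days 15 and 21 (log2 -1.11 and -1.13, adjusted p = 0.00287 and 0.00213), and reads of BMP8B and its near-identical neighbour BMP8A may have been split or dropped in counting. All 5 ligands tested, BMP2, BMP6, BMP7, BMP8A and BMP8B, had log2 fold changes below 0 at each time of exposure. Of all 19180 genes tested, 10058, 9938 and 9809 were below 0 at days 6, 15 and 21. Among the 5 ligands only BMP8B was called, and BMP7 passed the adjusted p at day 15 without the fold threshold (log2 -0.74, adjusted p = 0.0425).

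SMURF2, a ubiquitin ligase that targets SMADs and their receptors, rose at days 15 and 21 (log2 1.21 and 1.06, adjusted p = 0.00348 and 0.0103) and was at 0.03 at days 15 and 30 after withdrawal. With high mitochondrial share as a yes or no covariate its log2 fold change at day 21 was 0.85, under the fold threshold (adjusted p = 9.48e-05). ATOH8, a transcription factor gene known as a BMP target, rose at day 21 from 8.56 ± 0.351 to 29.4 ± 9.05 CPM (log2 1.78 ± 0.493, adjusted p = 0.0228). Its log2 fold change was between 1.06 and 1.71 at the other time points, where it missed the threshold. With the same covariate ATOH8 passed at all 6 (adjusted p = 0.0424 at most). The calls of BMPR1B, BMP8B, SMURF2 and ATOH8 at day 21 were lost without the libraries numbered 1 (adjusted p = 0.108, 0.317, 0.343 and 0.294), and that of BMPER was not. Calls were also lost there without the libraries numbered 2 for SMURF2 (0.0615), and without those numbered 3 for BMPR1B (0.0528) and ATOH8 (0.235). At day 15, BMP8B and SMURF2 lost theirs without number 1 (0.18 and 0.145) or number 3 (0.186 and 0.0886). None of the E protein genes TCF3, TCF4 and TCF12, nor SMAD4, SMAD2 or SMAD3, was called at any time point.

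**Figure D4:**
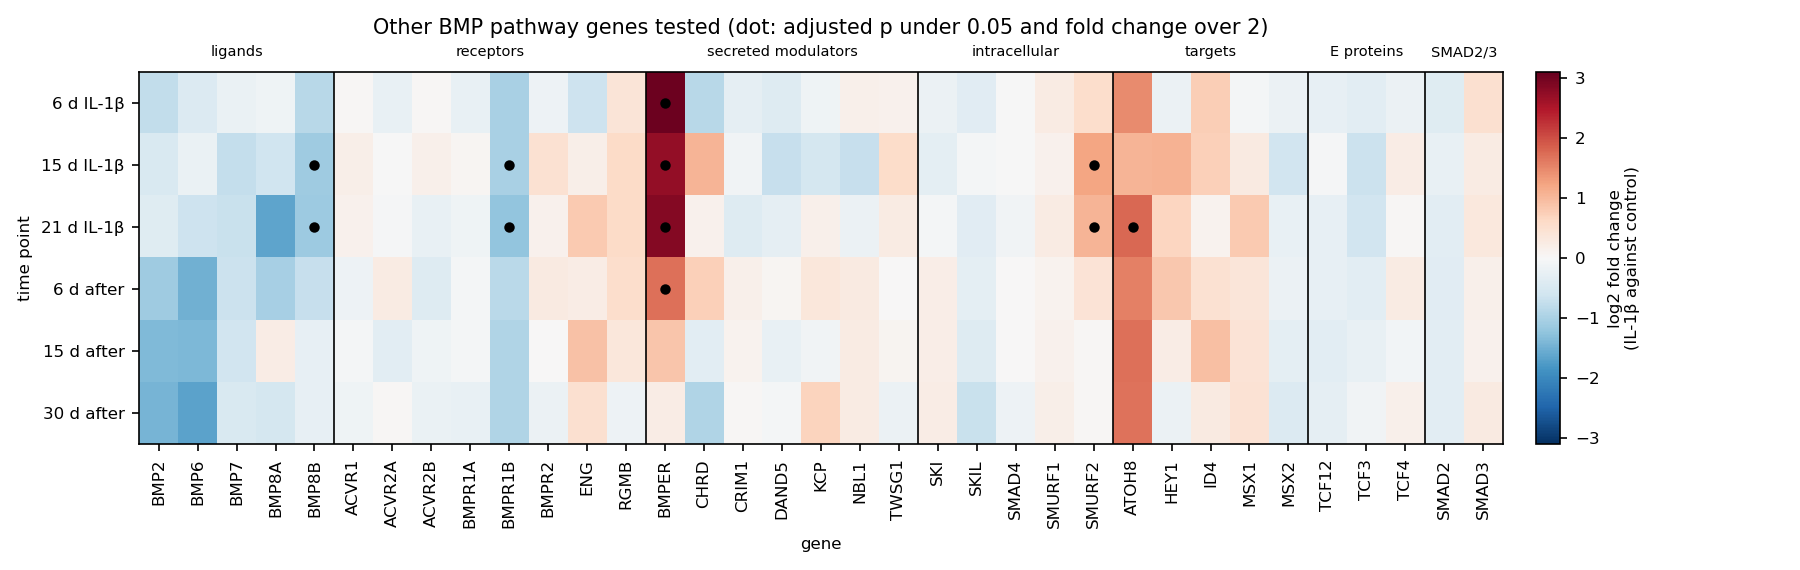
Log2 fold change (colour, red higher and blue lower with IL-1β) of the 35 other pathway genes tested (horizontal axis, grouped by role) at the 6 time points (vertical axis), with a dot where the adjusted p was under 0.05 and the fold change over 2. Dots fall on BMPER at 4 time points, on BMP8B, BMPR1B and SMURF2 at 2 each and on ATOH8 at day 21 of IL-1β.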

How the data were processed

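RNA from A549 cells was sequenced as 36 libraries. The labels do not say whether libraries of different time points came from the same passaged cultures. The authors aligned single-end reads to GRCh37 and deposited counts per Ensembl gene for each library, not normalized. The submitters' processing notes name bcl2fastq 2.17, TopHat2 2.0.14, Bowtie2 2.2.5 and HTSeq 0.6.1. The kit was stranded, whereas the strand setting of the counting and the annotation release are not given in the sources used here. Symbols, positions and exon lengths were taken from GENCODE on GRCh37, which held 55665 of the 63677 listed IDs, and promoter sequence came from RefSeq. HTSeq's summary lines (8.48% to 18.6% of reads on no gene, 2.62% to 4.18% ambiguous) were left out of library sizes and tests.

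Groups came from the deposited labels. Counts were fitted in edgeR 4.0.16 (R 4.3.3) with TMM scaling, filterByExpr, the 12 groups as terms, quasi-likelihood F-tests and Benjamini-Hochberg adjustment over 19180 genes. A gene was called where it exceeded a fold change of 2 and its adjusted p was below 0.05, the thresholds of the study. Differences between responses were tested as contrasts, at an adjusted p under 0.05, with libraries of different time points treated as independent. The SE of a log2 fold change was derived from the test, as its absolute value divided by the square root of the F statistic. Expression is given as CPM with TMM-scaled library sizes, and CPM per kb uses the summed exon length. Alternatives were DESeq2 1.42.0 size factors, its Wald test, no filter on low counts, at least 10 counts in every library, each time point fitted alone, the replicate number as a block, each replicate number left out, and libraries with over 10% mitochondrial counts left out or modelled (also with the block). The covariate for mitochondrial share was a yes or no term (over 10% or not), not the share itself. The code was tested on simulated data.

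The members, lists and tests were chosen with earlier results of these data known. All 10 members were named, with the listed pathway genes called at 1 or more time points and the 5 genes with the highest r to SMAD6 or BMP4, except that 1 gene like BMP4 and 1 leukocyte marker are not reported here. With 3 libraries a group and 9116032 to 23570026 counts a library, low genes such as SMAD9 were measured on few reads. Within groups, 0 of 36 pairs of libraries were identical, and the chi-square per gene was 3.84 or more in each. The main fit did not pair libraries by replicate number at any time point. Same-numbered libraries deviated together in all 3 pairs at day 21 of IL-1β and day 30 after withdrawal (r of 0.197 or more). The fit with the replicate number as a block is given as an alternative.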

Additional observations from a re-analysis of the deposited data

How the results depend on the processing

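Of 1366 values recomputed under the alternatives, 1185 were scored as the same, 74 lost a call or fell by over 1.5 times, 44 gained, and 63 changed sign. Of those scored the same, 1040 were log2 values that kept their direction and their side of the thresholds. The other 145 were counts of called genes that were equal to the main count or within 1.5 times of it, so some of these counts did change. With 3 libraries a group, the calls of BMP4, BAMBI and SMAD9 depended on which libraries were used. Those of SMAD6 at days 15 and 21 of IL-1β held in all 12 alternatives. SMAD9 was tested on 3 to 28 counts per library, and the filter of 10 counts removed it. Leaving out the libraries of high mitochondrial share leaves 1 control at days 6 and 15 after withdrawal, which is assumed to vary like the other groups. The cause of the changes below was not tested.

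Counts of members called changed as follows. At day 6 of IL-1β, 2 passed the adjusted p alone. With each replicate number left out, 1 to 2 were called at day 15 and 1 to 2 at day 21, then 0 to 1, 0 to 2 and 0 to 2 at days 6, 15 and 30 after withdrawal. With each time point fitted alone, 0 were called at any time after withdrawal. Without the libraries of high mitochondrial share, 3 were called at day 6 and 0 at day 15 after withdrawal. Without a filter on low counts there were 0 at day 15 and 1 at day 30 after withdrawal, and with at least 10 counts in every library 1 at each. For the difference between day 30 after withdrawal and day 21, 0 to 1 passed with each replicate number left out.

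Counts of other pathway genes changed too. At day 6 of IL-1β they were 0 with at least 10 counts in every library, 2 by DESeq2's Wald test, 2 with each time point alone, 2 without the libraries of high mitochondrial share, 3 with that share as a covariate, 2 with the covariate and the block, and 3 by the adjusted p alone. At day 15, 2 were called with the time point alone and 1 to 3 with each replicate number left out, and at day 21, 1 to 4. At day 6 after withdrawal there were 0 with at least 10 counts, 0 with the time point alone and 0 to 1 with each replicate number left out, but 2 by DESeq2's Wald test, 2 without the libraries of high mitochondrial share, 2 with the covariate and 2 with the covariate and the block. At day 15 after withdrawal there was 1 by DESeq2's Wald test, 1 with the covariate and 1 with the covariate and the block. At day 30 after withdrawal there were 2 by DESeq2's Wald test, 1 with the block, 1 without the libraries of high mitochondrial share, 2 with the covariate and 2 with the covariate and the block.

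Same-numbered control and IL-1β libraries deviated from their group means with a correlation over 0.1 in 14 of 18 pairs, in all 3 at day 21 on IL-1β, likewise at day 30 after withdrawal, and in 2 of 3 at each of the other 4 time points (range -0.336 to 0.718, mean 0.279). With the replicate number as a block, 0, 2, 2, 1, 2 and 2 members were called at the 6 time points, as without it. The block took SMAD6 at day 6 after withdrawal past the adjusted p alone (0.0251), with a log2 fold change of -0.83 under the fold threshold. The block turned the log2 fold change of ID1 at day 15 of IL-1β to 0.02 and that of SMAD1 at day 6 after withdrawal to -0.01.

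The other changes of sign were of log2 fold changes that had not been called. When the 11 libraries of high mitochondrial share were left out, sign changes were seen for SMAD7 at days 6 and 15 on IL-1β (-0.02 and 0.10) and day 30 after withdrawal (-0.12), SMAD1 at day 6 on IL-1β (0.03) and days 6 and 15 after withdrawal (-0.12 and 0.02), ID1 at day 15 of IL-1β (0.24), ID3 at day 21 of IL-1β (0.03) and days 6 and 30 after withdrawal (-0.15 and -0.21), and the BMP4 difference of day 6 after withdrawal from day 21 (-0.18). With the covariate, and then with the covariate and the block, SMAD7 at day 6 of IL-1β was -0.14 and -0.16, SMAD1 at day 6 of IL-1β 0.08 and 0.08, SMAD5 at day 15 after withdrawal 0.01 and 0.01, ID1 at day 15 of IL-1β 0.15 and 0.17, ID3 at day 21 0.21 and 0.23, and ID3 at day 6 after withdrawal -0.16 and -0.19. The BMP4 difference was -0.01 with the covariate. Without a filter on low counts SMAD1 was 0.02 at day 6 on IL-1β and 0 at day 6 after withdrawal, and SMAD5 0.02 at day 6 on IL-1β and 0.01 at day 15 after withdrawal. With at least 10 counts SMAD5 at day 15 after withdrawal was 0. With each time point alone SMAD1 at day 6 of IL-1β was 0, SMAD5 at day 15 after withdrawal 0.01 and SMURF2 at day 30 after withdrawal 0. With DESeq2's size factors SMAD1 and ID1 at day 15 of IL-1β were 0 and SMURF2 at day 30 after withdrawal -0.01. With DESeq2's Wald test SMAD1 at day 6 after withdrawal and ID1 at day 15 of IL-1β were 0 and SMURF2 at day 30 after withdrawal -0.01.

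With each replicate number left out in turn, signs also changed. The log2 fold change of SMAD7 ran from -0.04 to 0.13, -0.41 to 0.21 and -0.09 to 0.15 at the 3 times of exposure and from -0.13 to 0.28 at day 30 after withdrawal. That of SMAD1 ran from -0.08 to 0.07 at day 6 and -0.06 to 0.02 at day 15 on IL-1β and from -0.32 to 0.18 at day 6 after withdrawal. SMAD5 ran from -0.08 to 0.11 at day 6 on IL-1β and from -0.13 to 0.02 at day 15 after withdrawal, and SMAD9 from -0.04 to 0.53 at day 6 and -0.05 to 0.53 at day 21 on IL-1β. ID1 ran from -0.23 to 0.31 at day 15 on IL-1β, and ID3 from -0.04 to 0.36 and from -0.23 to 0.35 at days 6 and 30 after withdrawal. BMPER at day 30 ran from -0.06 to 0.93, and SMURF2 from -0.13 to 0.28 at day 15 and -0.08 to 0.18 at day 30, all after withdrawal. The difference of BMP4 between day 6 after withdrawal and day 21 ran from -0.09 to 0.56, and that of BAMBI between days 21 and 6 on IL-1β from -0.05 to 0.26.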
